A study of Mus musculus with 12 samples.

Results

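The comparison set pancreas of aged male mice against pancreas of young adult male mice at the 3 collection times that follow lights-off: 16, 20 and 24 h in zeitgeber time, which counts hours from lights-on. It used 6 of the 12 samples of the study, chosen by their labelled age and time and by no measured value. The Old samples came from C57BL/6J mice, a common inbred strain, killed at 25 months of age, and the Young samples from C57BL/6J mice killed at 5 months. All were fed regular chow without restriction, lived alone for the last 4 weeks on a cycle of 12 h of light and 12 h of darkness, and carried no allele or agent named in the labels. Polyadenylated RNA of the whole tissue was sequenced, and the study as a whole asked how the daily course of pancreatic transcripts differs with age.

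Each age had 1 sample at each time, so the 3 samples of an age differ in collection time as well as in animal. The labels do not say whether a sample is 1 mouse. P-values measure the spread between these samples, which includes differences of collection time and may in part be technical. The 16 h and 20 h samples fall inside the dark phase, while 24 h is the hour at which darkness ends. Deposited totals were 1355962, 1252549 and 1168694 counts in Old at 16, 20 and 24 h and 1030189, 1171634 and 1321523 counts in Young, so that 1 count is worth 0.749 to 0.955 CPM, the unit used below, in which each library is scaled to 1000000 counts. Genes of digestive enzymes, the defining products of pancreatic acinar cells, took 31.4 to 42.3% of counts in Old and 35.3 to 37.1% in Young. Liver and intestine marker lists had no member abundant enough to test, and 4 of 9 and 4 of 8 of their genes had no count in any of the 6 samples.

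Most of the pancreas is made of acinar cells, which make digestive enzymes, pack them into zymogen granules and release them into ducts. Mice eat mainly in darkness, so these samples come from the hours of feeding and secretion. Between the acini lie fibroblasts and stellate cells, which make the collagen matrix, as well as islets, vessels, fat and immune cells. The regenerating (Reg) genes encode small secreted proteins with a C-type lectin fold; acinar cells are known to switch several of them on in pancreatitis and other injury. In RNA of a whole tissue, fewer cells of a type and less RNA per cell cannot be told apart.

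No gene passed the test between Old and Young at these hours. Of 5689 genes abundant enough to test, 0 had an adjusted p under 0.05 in edgeR's quasi-likelihood test (percent called 0), and the smallest adjusted p was 0.347. At an unadjusted p under 0.05 there were 99 genes higher in Old (1.74% of those tested) and 101 lower in Old (1.78%), in all 200 where 284 would be expected if no gene differed. DESeq2 and limma-voom also called 0 genes, with 64 and 191 genes at an unadjusted p under 0.05. The 3 Old samples lay wholly above the 3 Young samples for 273 genes (4.8%) and wholly below them for 229 genes (4.03%). The count of calls depended on Old 24 h: without that sample, 14 genes passed, 5 higher in Old and 9 lower. Without Old 20 h the count was 3, without Old 16 h it was 2, and without any 1 Young sample it was 0. All genes below are therefore described by their values and by how the samples are placed, and none is called changed.

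The regenerating genes spread widely among Old samples, and their sequences upstream of the start are shown because members with like and unlike placing lie in 1 cluster. Reg3b, Reg3d, Reg3a, Reg2, Reg1 and Reg3g lie between positions 78370885 and 78468874 of chromosome 6 (GRCm38.p6, RefSeq) in that order, while Reg4 is on chromosome 3. The 250 bases before the start of 3 members that were high in Old 16 h and Old 24 h, and of Reg1, which was not, are printed from RefSeq's GRCm38.p6 table, 5′ to 3′. Capitals mark 3 motifs searched on both strands: TATAAA, the TATA box; CACCTG, an E-box of the kind that the acinar factor PTF1 binds; and TTCNNNGAA, the core of a STAT site. Matches in capitals do not overlap one another.
Reg2 (chr6:78404905-78405154, plus strand): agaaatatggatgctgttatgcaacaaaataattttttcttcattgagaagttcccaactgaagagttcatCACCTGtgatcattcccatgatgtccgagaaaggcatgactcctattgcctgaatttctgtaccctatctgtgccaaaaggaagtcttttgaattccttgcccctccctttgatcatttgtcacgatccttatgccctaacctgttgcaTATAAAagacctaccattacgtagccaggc
Reg3b (chr6:78370635-78370884, plus strand): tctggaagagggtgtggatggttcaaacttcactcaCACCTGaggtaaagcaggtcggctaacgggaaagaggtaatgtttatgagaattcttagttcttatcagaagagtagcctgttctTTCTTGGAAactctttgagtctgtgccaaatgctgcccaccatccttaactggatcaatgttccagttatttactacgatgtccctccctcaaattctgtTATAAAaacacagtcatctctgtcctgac
Reg3a (chr6:78380459-78380708, plus strand): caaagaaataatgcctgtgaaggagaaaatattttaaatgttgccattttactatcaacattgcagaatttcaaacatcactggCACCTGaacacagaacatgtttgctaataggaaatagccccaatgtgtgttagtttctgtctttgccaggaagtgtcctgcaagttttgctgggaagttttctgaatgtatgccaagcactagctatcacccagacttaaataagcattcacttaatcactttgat
Reg1 (chr6:78425733-78425982, plus strand): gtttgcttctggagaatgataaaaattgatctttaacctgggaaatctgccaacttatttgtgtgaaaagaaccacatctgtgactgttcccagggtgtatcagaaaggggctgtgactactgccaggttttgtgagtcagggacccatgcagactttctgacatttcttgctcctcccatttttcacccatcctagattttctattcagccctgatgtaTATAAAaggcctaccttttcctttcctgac
TATAAA was found in Reg2, Reg3b and Reg1 at bases 221 or 222 of the window, against 12.4% of all 32851 windows of this length. The E-box letters were found in Reg2, Reg3b and Reg3a and not in Reg1, against 17.2% of all windows. The STAT core letters were found in Reg3b alone among these 4, against 7.02% of all windows. A match is a description of letters and does not show that a factor binds there.

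Reg2, a member expressed in acinar cells and islets, had 1150.4, 33.9 and 4518 CPM in Old at 16, 20 and 24 h, against 108, 51.8 and 67.1 CPM in Young. In all, 2 of the 3 Old samples stood above every Young sample, while Old 20 h lay below all 3 of them, so the groups overlapped. The fitted log2 fold change was 4.65 ± 0.96 (SE), adjusted p = 0.347, and the SD among Old samples exceeded their mean (1901 ± 2335 CPM in Old and 75.6 ± 29 CPM in Young (SD, n = 3 each)). Reg3b, known in rodents as pancreatitis-associated protein, had 151, 17.3 and 623 CPM in Old, against 25.8, 25.9 and 20.5 CPM in Young at the same times. The order was that of Reg2, with Old 20 h again the lowest of the 6, and the log2 fold change was 3.45 ± 0.76 (SE), adjusted p = 0.378. Reg3a had 24.7, 0 and 145 CPM in Old, against 1.91, 2.68 and 1.58 CPM in Young. Old 20 h had no count of Reg3a, which allows up to 2.36 CPM at a floor of 3 counts. With 33, 0 and 182 counts in Old and 2, 3 and 2 in Young, Reg3a had too few samples at the filter's minimum to be tested. Its lack of counts in Old 20 h thus kept it out as much as its low counts in Young. The fit of 11 samples described below did test it and gave a log2 fold change of 4.70 ± 1.04 (SE), adjusted p = 0.153.

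The rest of the family was mixed. Reg1, the pancreatic stone protein of pancreatic juice, had 2525, 1492 and 1822 CPM in Old, against 2660.2, 2822 and 2565 CPM in Young. Every Old sample was below every Young sample, with a log2 fold change of -0.46 ± 0.20 (SE), adjusted p = 0.999. Reg3d had 92.9, 64.6 and 297 CPM in Old, against 97.4, 118 and 96.4 CPM in Young; only Old 24 h stood out, and the log2 fold change of 0.54 became -0.40 without it. Reg3g had 6, 3 and 10 counts in Old and 0, 0 and 1 counts in Young; Old 24 h was again the highest and Old 20 h the lowest of the Old samples, and all 3 were above Young. It was too sparse for the test of 6 samples, and the fit of 11 samples gave log2 fold changes of 3.68 ± 1.16 at 16 to 24 h and 3.05 ± 1.05 at 4 to 12 h, adjusted p = 1.00 at 16 to 24 h. Reg4 had 1 count in Old 24 h and none elsewhere. Reg2 passed the test when any 1 Old sample was left out, with log2 fold changes of 4.89 without 16 h, 5.22 without 20 h and 2.97 without 24 h. The adjusted p was 0.0228, 0.000133 and 0.0413 in those fits. Reads shared between these related genes could not be checked, since the sources used here do not say how reads matching several genes were treated.

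**Figure D1:**
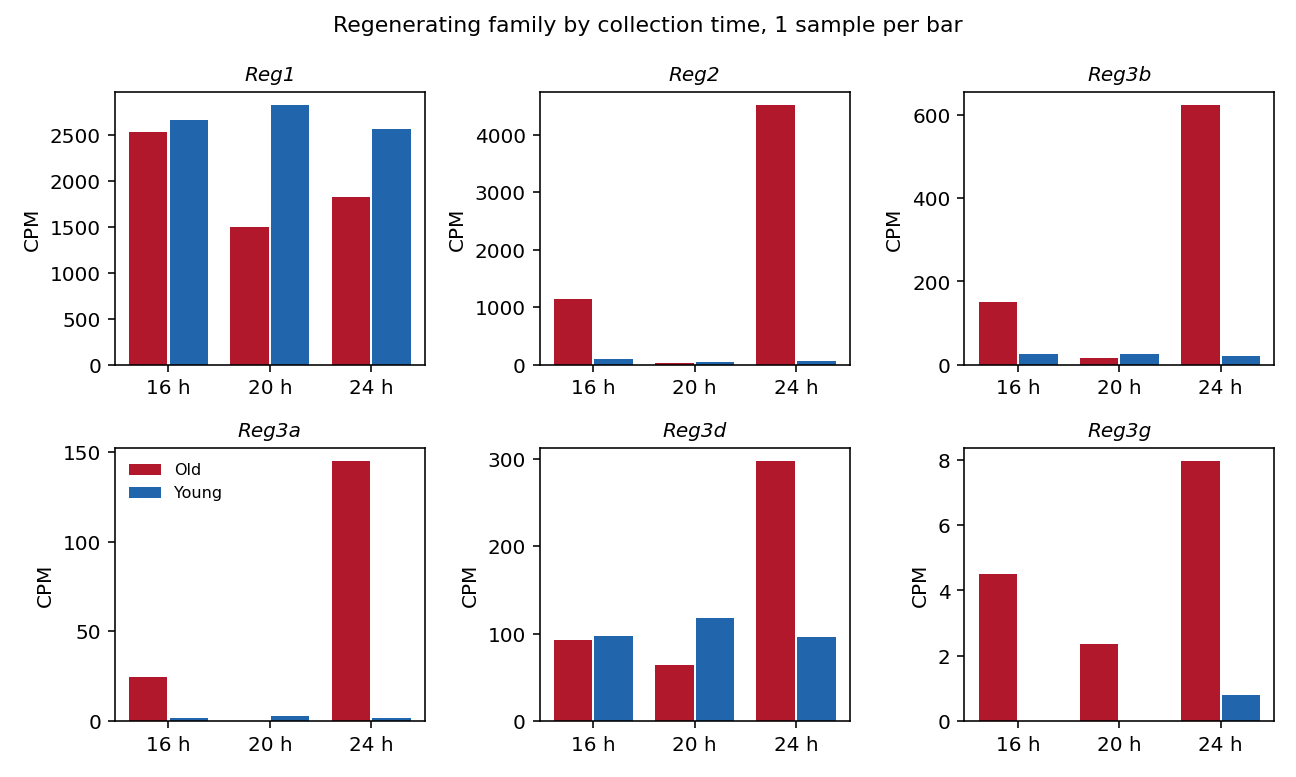
CPM (vertical axis, from 0, a separate scale in each panel) of 6 regenerating genes at 16, 20 and 24 h, 1 sample per bar, Old in red left of Young in blue. Reg2, Reg3b and Reg3a are high in Old 16 h and Old 24 h and at or below Young at 20 h, while Reg1 is lower in Old at each time.

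The genes named in each direction were picked from these same samples, by small p and the same side at all 3 times. Placing without overlap is favoured by that rule and is no separate support. Kcnma1, Snord99, Foxj2, Medag and Ugt2b34, among others, reached the filter's minimum only in their higher group. Among genes placed above Young at all 3 times, Kcnma1 had the smallest p. It encodes the pore of the large-conductance potassium channel that calcium and voltage open together (chr14:23292288-24005110). It had 17.2, 24.4 and 12.7 CPM in Old at 16, 20 and 24 h, against 4.78, 2.68 and 1.58 CPM in Young. The groups did not overlap, and the lowest Old sample was above the highest Young one; the log2 fold change was 2.59 ± 0.48 (SE), adjusted p = 0.347. These values rest on 23, 31 and 16 counts in Old and 5, 3 and 2 counts in Young. Cobl, an actin nucleator (chr11:12236676-12465022), had 56.2, 61.4 and 52.4 CPM in Old, against 26.7, 32.2 and 15 CPM in Young. Old samples were close to one another and all above Young, with means of 56.7 ± 4.52 CPM in Old and 24.6 ± 8.77 CPM in Young (SD, n = 3 each) and a log2 fold change of 1.21 ± 0.26 (SE), adjusted p = 0.347. Without Old 24 h both passed, Kcnma1 at 2.78 (adjusted p = 0.0105) and Cobl at 1.26 (adjusted p = 0.0413).

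The other 8 named as higher in Old did not pass either, with adjusted p of 0.512 for Snord99, 0.681 for Gne and 0.999 for the remaining 6. Gne, the enzyme that starts sialic acid synthesis, had 18.7, 20.5 and 19.9 CPM in Old, against 3.82, 9.83 and 7.9 CPM in Young. The SD of the 3 Old samples was 0.888 CPM and the log2 fold change was 1.43 ± 0.35. Snord99, a small nucleolar RNA annotated inside its host gene Snhg12 (chr4:132310703-132310758), had 13.5, 11.8 and 24.6 CPM in Old, against 3.82, 3.57 and 5.53 CPM in Young, with a log2 fold change of 1.91 ± 0.45. A library of polyadenylated RNA is not made for so short a transcript, so its reads and those of the host cannot be told apart. Limch1, an actin-binding regulator of nonmuscle myosin, had 14.2, 17.3 and 19.1 CPM in Old, against 5.73, 8.94 and 4.74 CPM in Young (log2 fold change 1.38 ± 0.37). Ttc37, a scaffold of the Ski complex in cytoplasmic RNA decay, had 35.9, 34.6 and 32.6 CPM in Old, against 18.1, 22.3 and 18.2 CPM in Young (log2 fold change 0.81 ± 0.23). For each of these the groups did not overlap. Ap1ar, which links AP-1 vesicles to kinesin, had a log2 fold change of 1.07 ± 0.34, the ribosomal protein gene Rpl31 0.68 ± 0.22 and the forkhead factor Foxj2 1.34 ± 0.44, again without overlap. Map1b, a microtubule-associated protein, had 51.7, 33.9 and 54 CPM in Old, against 39.2, 17.9 and 16.6 CPM in Young; Old 20 h lay below Young 16 h, and the log2 fold change was 0.94 ± 0.31.

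Of the 10 genes named as lower in Old, Scara5 had the smallest p. It encodes a scavenger receptor that takes up ferritin (chr14:65666403-65764826). It had 2.25, 7.87 and 11.9 CPM in Old at 16, 20 and 24 h, against 26.7, 18.8 and 32.4 CPM in Young. Every Old sample was below every Young sample, most of all at 16 h, and the log2 fold change was -1.83 ± 0.41 (SE), adjusted p = 0.378. Cd248, or endosialin, a surface protein of fibroblasts and pericytes, had 1.5, 5.51 and 10.3 CPM in Old, against 18.1, 13.4 and 19.7 CPM in Young, with the same placing and a log2 fold change of -1.57 ± 0.47. Plac9a, which encodes a small secreted protein, had 4.49, 11.8 and 26.2 CPM in Old, against 48.7, 21.4 and 51.3 CPM in Young; Old 24 h lay above Young 20 h, so the groups overlapped. Its log2 fold change was -1.52 ± 0.43. In Scara5, Cd248 and Plac9a alike, Old 16 h was the lowest and Old 24 h the highest of the Old samples. This is also the order of the summed matrix list below.

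Medag, a gene of adipocyte formation, had 2.25, 2.36 and 3.18 CPM in Old, against 11.5, 10.7 and 8.69 CPM in Young. Its Old values stand for 3, 3 and 4 counts, and the log2 fold change was -1.94 ± 0.52. Ugt2b34, a glucuronidation enzyme of a multigene family, had 5, 0 and 0 counts in Old and 9, 10 and 11 counts in Young. Both later Old samples had none, and a count of 0 allows 2.36 CPM at 20 h and 2.38 CPM at 24 h. Ndfip2, an adaptor of Nedd4 ubiquitin ligases, had 5.24, 7.09 and 7.94 CPM in Old, against 16.2, 14.3 and 19 CPM in Young, with a log2 fold change of -1.28 ± 0.36. Srf, the serum response factor of actin and immediate early genes, had 5.99, 11.8 and 7.15 CPM in Old, against 20.1, 15.2 and 19.7 CPM in Young (log2 fold change -1.14 ± 0.35). Rgp1, a partner in activating the Golgi GTPase Rab6, had 1.5, 2.36 and 6.36 CPM in Old, against 9.55, 15.2 and 9.48 CPM in Young (log2 fold change -1.72 ± 0.55). In each of these 5 genes the groups did not overlap, and the adjusted p was 0.999. Try10, a trypsinogen, had 157, 146 and 88.2 CPM in Old, against 256, 222 and 214 CPM in Young, with no overlap and a log2 fold change of -0.82 ± 0.21 (SE), adjusted p = 0.834. Trypsinogen genes are close copies of each other, so its reads may be split among them.

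**Figure D2:**
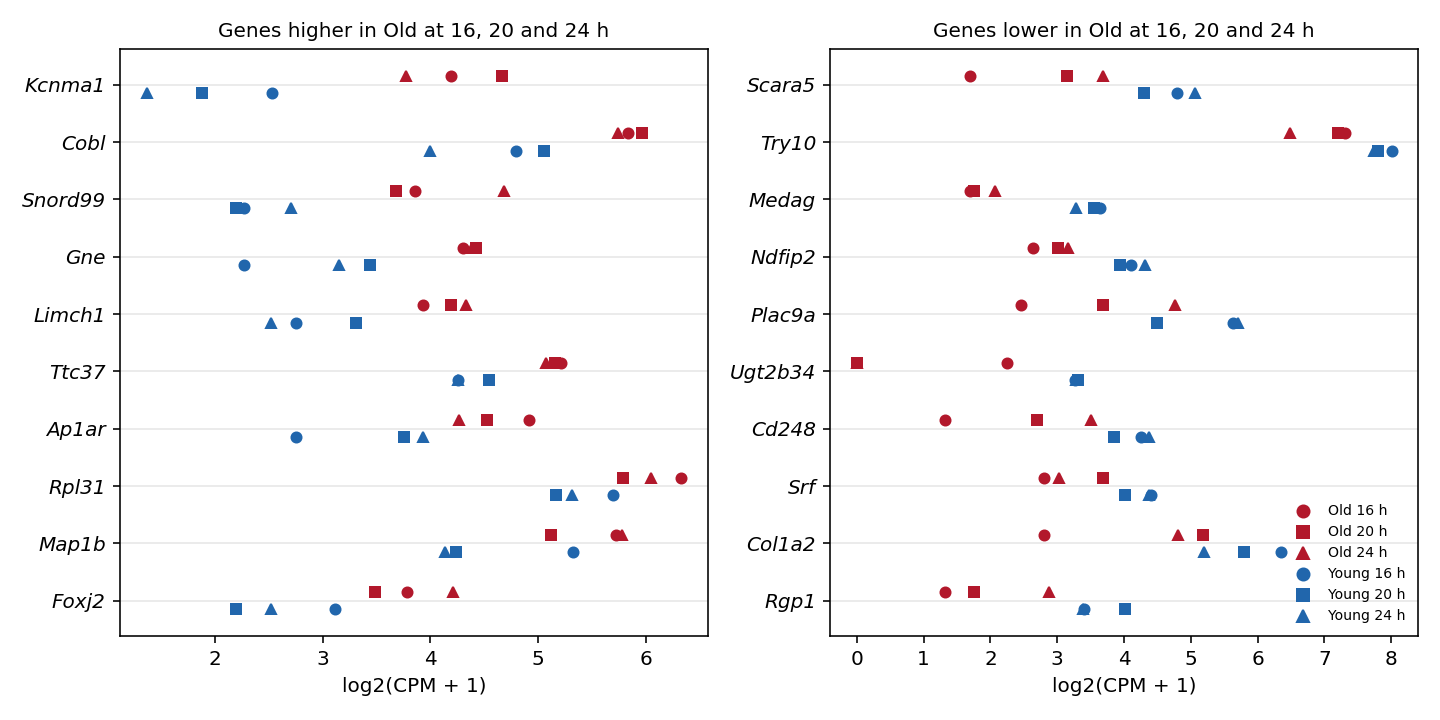
log2(CPM + 1) (horizontal axis) of the 10 genes named as higher in Old (left) and the 10 named as lower in Old (right), with each Old sample in red just above each Young sample in blue and the marker shape giving the time. In all but Map1b and Plac9a the red and blue points do not overlap, though in Col1a2 they nearly meet. No gene passed the adjusted test.

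Collagen and other matrix genes were lower in Old at 16 h and 20 h and not at 24 h. Of the 25 on the list, 22 were tested; 20 had a log2 fold change below 0, against 49.1% of all genes tested, and 9 had an unadjusted p under 0.05 on the lower side, against 1.78%. The median log2 fold change was -0.64, beside 0.01 over all genes tested. Wholly below Young were 3 of the 22, against 4.03%. The summed level of the list was 267, 509 and 948 CPM in Old at 16, 20 and 24 h, against 1018, 886 and 889 CPM in Young. Old 16 h held the least and Old 24 h about as much as any Young sample.

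Taken time by time, all 22 tested matrix genes were lower in Old at 16 h, where 50.1% of all tested genes were, with a median difference of -1.61 in log2 CPM. At 20 h, 20 of 22 were lower, beside 49.9% of all genes, with a median of -0.80. At 24 h, 8 of 22 were lower, beside 47.2%, with a median of 0.12. Col1a2, a chain of type I collagen (chr6:4505618-4541543), had 5.99, 35.4 and 27 CPM in Old, against 80.2, 54.5 and 35.5 CPM in Young. It was lower at each time without overlap, although Old 20 h and Young 24 h, with 45 counts each, were nearly equal. The log2 fold change was -1.31 ± 0.41 (SE), adjusted p = 0.999. Col3a1, type III collagen (chr1:45311538-45349706), had 15.7, 41.7 and 118 CPM in Old, against 139, 124 and 153 CPM in Young. Here too the groups did not overlap, although Old 24 h came close to the lowest Young sample, and the log2 fold change was -1.25 ± 0.42 (SE), adjusted p = 0.999. Sparc, a collagen-binding matrix protein, had 14.2, 18.9 and 47.7 CPM in Old, against 74.5, 42.9 and 50.6 CPM in Young and overlapped through Old 24 h, with a log2 fold change of -1.05 ± 0.35. Col4a2, of the basement membrane, had 12.7, 20.5 and 26.2 CPM in Old, against 22.9, 50 and 36.3 CPM in Young; its Young 16 h sample was below Old 24 h, and the log2 fold change was -0.89 ± 0.31. Lamb1, a laminin chain, was lower in Old at each time, with differences of -0.93, -0.52 and -0.84 in log2 CPM at 16, 20 and 24 h. Bgn (biglycan) and Col15a1, in contrast, were higher in Old at 24 h, by 1.06 and 0.95. These last 3 were chosen after their values were seen.

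**Figure D3:**
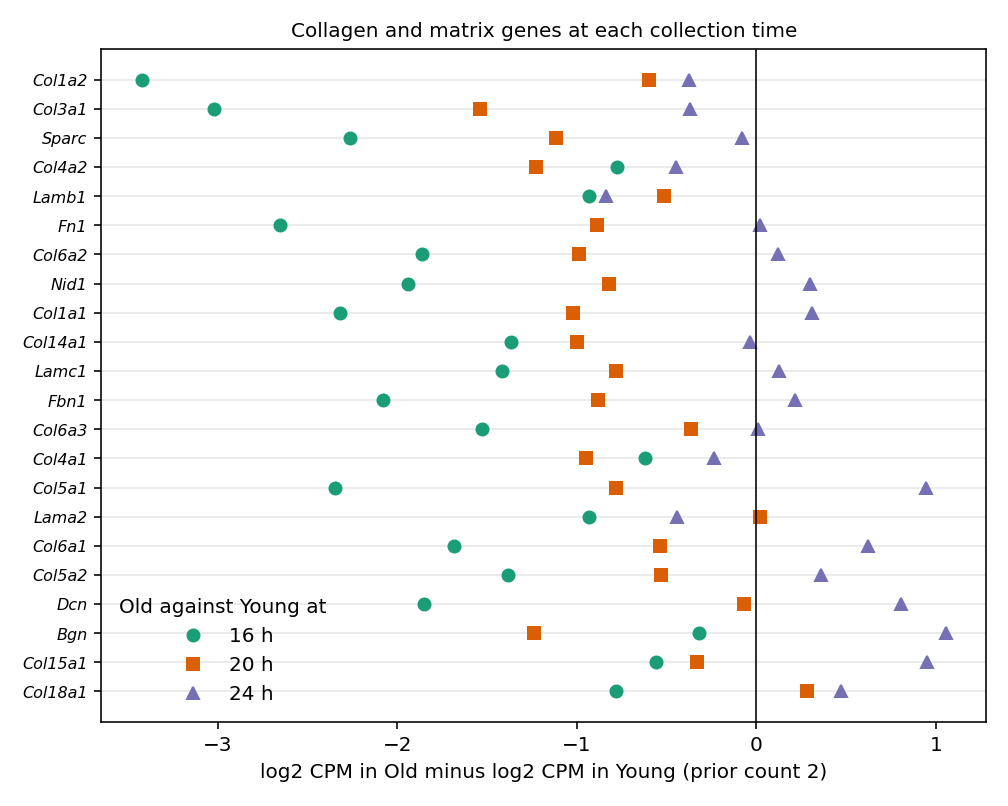
Difference in log2 CPM (horizontal axis, Old minus Young of the same time, prior count 2) for the 22 tested collagen and matrix genes, 1 row per gene, with marker and colour giving the time. All points at 16 h lie left of 0, and the points at 24 h lie on both sides of it.

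The matrix result depended on which time entered the fit. Without both 24 h samples, all 22 had a log2 fold change below 0, with a median of -1.17; an unadjusted p under 0.05 was reached by 16, and 6 passed the adjusted test. Without Old 24 h alone, 18 reached it and 4 passed: Col3a1 at -2.28 (adjusted p = 0.000133), Fn1, or fibronectin, at -1.81 (0.00536), Sparc at -1.75 (0.00536) and Col1a1 at -1.57 (0.0451). Without both 16 h samples, 15 of 22 were below 0 and 3 reached it. Without Old 16 h alone, 20 of 23 were below 0, 4 reached it and the median was -0.34. Over all genes, too, more passed without Old 24 h or without both 24 h samples than in the fit of 6 samples. The shares of all genes at an unadjusted p under 0.05 in these fits are not given here. The matrix counts are therefore not claimed to be particular to this list.

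Other fibroblast and stellate cell markers were placed like the matrix genes. Of 19 listed, 7 were tested, 6 of them with a log2 fold change below 0, and the median was -0.47. At 16 h and at 20 h all 7 were lower in Old, and at 24 h 3 of 7 were. The list summed to 154, 312 and 522 CPM in Old at 16, 20 and 24 h, against 486, 436 and 459 CPM in Young. Dpt (dermatopontin), a fibroblast matrix protein, had 2.25, 8.66 and 13.5 CPM in Old, against 13.4, 12.5 and 29.2 CPM in Young, with overlap and a log2 fold change of -1.20 ± 0.48. Gsn (gelsolin), an actin-severing protein, had 58.4, 138 and 186 CPM in Old, against 174, 219 and 199 CPM in Young, with overlap through Old 24 h and a log2 fold change of -0.63 ± 0.29. Rgs5, a pericyte marker, had 18, 11.8 and 19.1 CPM in Old, against 19.1, 21.4 and 27.6 CPM in Young (log2 fold change -0.49 ± 0.29). Of 13 endothelial genes, 5 were tested; all 5 had a log2 fold change below 0, against 49.1% of all genes, and the median was -0.14. At 24 h all 5 were higher in Old. Adipocyte genes had 4 of 15 tested, all below 0, with a median of -0.48; at 24 h 2 of the 4 were lower in Old. Their lipoprotein lipase gene Lpl had 21, 29.1 and 55.6 CPM in Old, against 55.4, 47.4 and 47.4 CPM in Young.

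**Figure D4:**
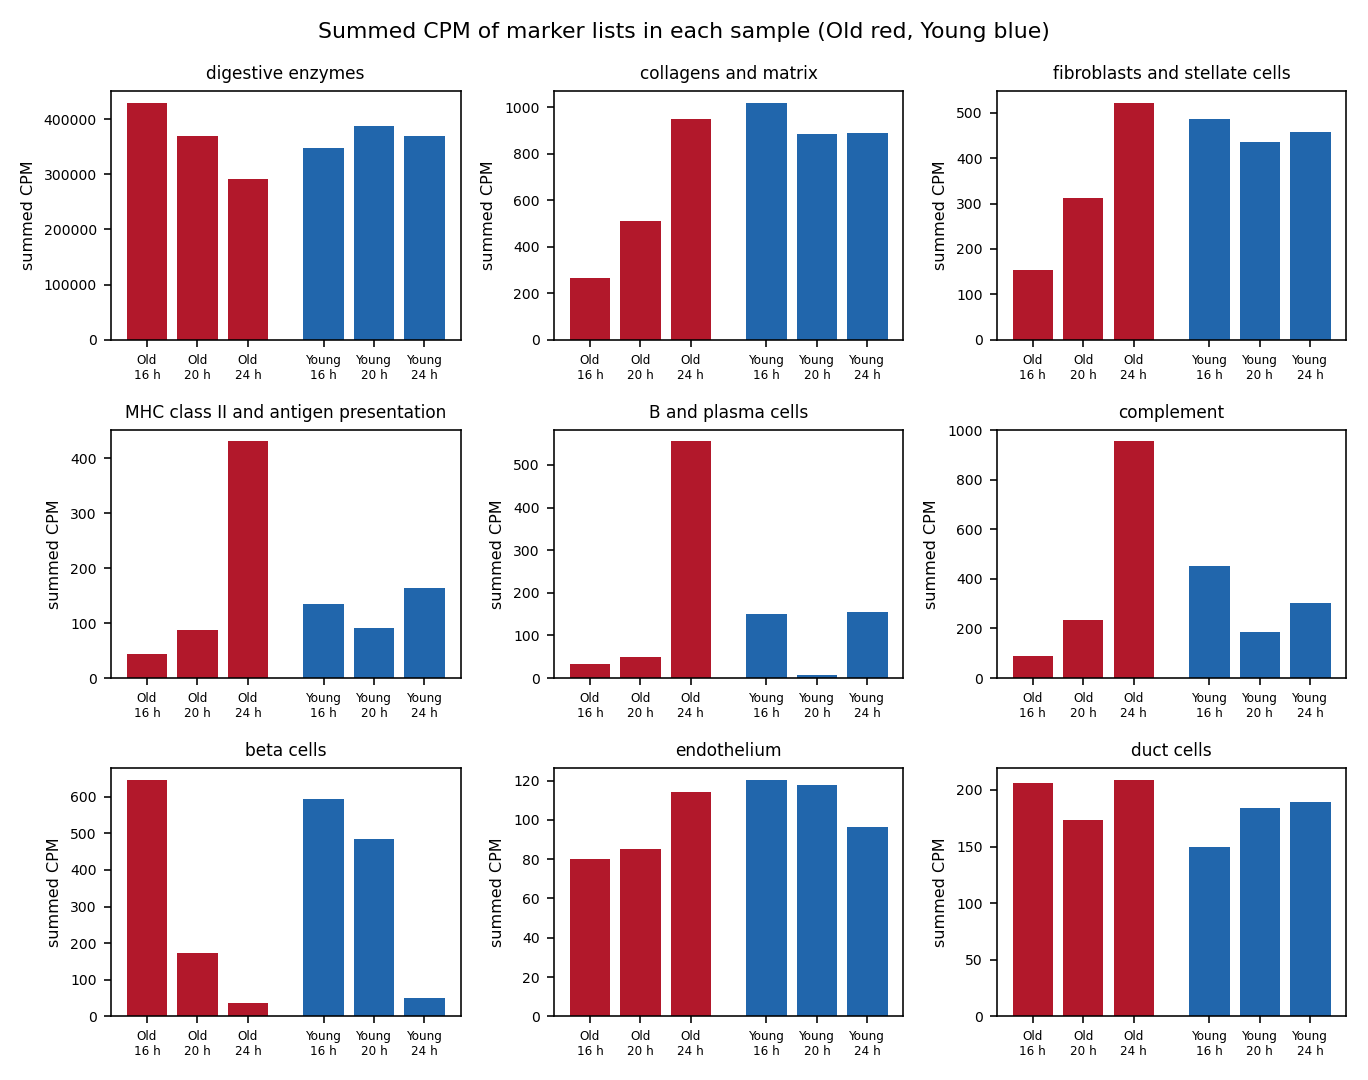
Summed CPM (vertical axes, from 0, a separate scale in each panel) of 9 marker lists in each of the 6 samples, Old in red left of Young in blue. Old 16 h is lowest for matrix and fibroblast lists, Old 24 h is highest for the immune lists, and beta cell genes are near their lowest at 24 h in both ages.

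Genes of immune cells set Old 24 h apart from the other 5 samples. MHC class II and antigen presentation genes summed to 44.2, 86.6 and 431 CPM in Old at 16, 20 and 24 h, against 136, 90.2 and 164 CPM in Young. The B and plasma cell list summed to 33, 48.8 and 555 CPM in Old at 16, 20 and 24 h, against 151, 7.15 and 156 CPM in Young, and complement genes to 89.9, 234 and 955 CPM in Old at 16, 20 and 24 h, against 453, 187 and 304 CPM in Young. In each, Old 24 h was the highest of the 6 and Old 16 h was below Young 16 h and Young 24 h. Ighm, the heavy chain of IgM, had 16.5, 20.5 and 216 CPM in Old, against 50.6, 2.68 and 56.9 CPM in Young. Cxcl13, the chemokine that draws B cells into follicles, had 0, 2.36 and 86.6 CPM in Old, against 16.2, 0 and 15 CPM in Young. C3, the central complement component, had 47.9, 141 and 667 CPM in Old, against 289, 98.3 and 179 CPM in Young. The Young samples were not uniform here either, since Young 20 h had the least of all 3 genes among Young. Cd74, the invariant chain of MHC class II, had 12.7, 15.8 and 157 CPM in Old, against 40.1, 30.4 and 58.4 CPM in Young.

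None of these genes passed, in the 6 samples, and their directions hung on Old 24 h. The log2 fold change of C3 was 0.60 ± 0.60 with that sample and -1.0 without it, that of Cd74 was 0.51 ± 0.63 and -1.60, and that of Ighm was 1.18 ± 0.78 and -1.0. Without Old 24 h, Cd74 passed as lower in Old (adjusted p = 0.0251). Without both 16 h samples, in contrast, C3 (1.53, adjusted p = 0.0058), Ighm (1.93, 0.0188), Cxcl13 (2.47, 0.0188) and the kappa light chain gene Igkc (2.17, 0.0158) passed as higher in Old. T and NK cell genes summed to 4.49, 3.94 and 58 CPM in Old at 16, 20 and 24 h, against 10.5, 5.36 and 12.6 CPM in Young, and neutrophil genes to 0.749, 3.15 and 21.4 CPM in Old at 16, 20 and 24 h, against 0, 0.894 and 4.74 CPM in Young, with no member of either list abundant enough to test. Macrophage and dendritic cell genes summed to 59.9, 109 and 221 CPM in Old at 16, 20 and 24 h, against 139, 109 and 164 CPM in Young, with 3 of 6 tested members on either side of 0. The part of these immune transcripts in the other values of Old 24 h was not tested.

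Old 24 h also had the smallest share of digestive enzyme counts, 31.4%, and Old 16 h the greatest, 42.3%. The enzyme list as a whole was balanced: 23 of 28 genes were tested, 13 had a log2 fold change above 0 and 10 below, and the median was 0.04. By time, 5 of 23 were lower in Old at 16 h, 11 at 20 h and 20 at 24 h. Klk1, a tissue kallikrein made by acinar cells, had 2173, 1853 and 1755 CPM in Old, against 2304, 2524 and 2486 CPM in Young, below Young without overlap (log2 fold change -0.34 ± 0.17). Among granule genes, Dmbt1, a secreted scavenger receptor protein of the granule, had 13024, 10633 and 13297 CPM in Old, against 8279, 10055 and 8568 CPM in Young. All Old samples were above all Young samples, with a log2 fold change of 0.46 ± 0.18 and an adjusted p of 0.999. Sycn (syncollin), of the granule membrane, had 9533, 6732 and 5047 CPM in Old, against 4783, 5922 and 4458 CPM in Young, with overlap (log2 fold change 0.49 ± 0.22). The granule list had 12 of 13 tested, 7 above 0 and 5 below, with a median of 0.07. Of the 12, 1 (Dmbt1) lay wholly above Young, against 4.8% of all genes, and 1 (Spink1) wholly below, against 4.03%. Acinar transcription factors had 7 of 10 tested, 4 above 0, with a median of 0.07.

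Islet hormone genes were lowest at 24 h in both ages. Ins2, an insulin gene, had 440.4, 103 and 13.5 CPM in Old, against 399, 326 and 22.9 CPM in Young. The 24 h sample of each age was the lowest of that age, and Old 20 h was below Young 20 h. The beta cell list summed to 646, 172 and 35.7 CPM in Old at 16, 20 and 24 h, against 593, 483 and 49.8 CPM in Young, with 4 of 12 tested and a median log2 fold change of -0.30. Gcg, the glucagon gene, had 62.9, 25.2 and 6.36 CPM in Old, against 58.3, 57.2 and 3.95 CPM in Young, in the same order within each age. Cpe, the carboxypeptidase that trims hormone precursors, had 15.7, 4.72 and 2.38 CPM in Old, against 16.2, 16.1 and 15.8 CPM in Young, lower in Old at each time without overlap (log2 fold change -1.05 ± 0.48). Duct cell genes, in contrast, summed to 206, 173 and 209 CPM in Old at 16, 20 and 24 h, against 150.0, 184 and 189.6 CPM in Young.

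Genes of acute phase and metabolic lists were described by the same counts. Of 16 acute phase genes listed, 2 were tested, and 4 had no count in any of the 6 samples. Itih4, an acute phase protein, had 56.9, 15.8 and 114 CPM in Old, against 22, 26.8 and 25.3 CPM in Young, high in Old 16 h and Old 24 h and lowest in Old 20 h, the placing of Reg2 and Reg3b. Its log2 fold change was 1.32 ± 0.45, and that of the other tested member, Stat3, was 0.13. Polyamine, one carbon and methylation genes had 12 of 14 tested, 8 above 0 and 3 at an unadjusted p under 0.05 on the higher side, against 1.74% of all genes. Sat1, which acetylates polyamines for breakdown, had 12.7, 15.8 and 23 CPM in Old, against 10.5, 7.15 and 7.11 CPM in Young, and Mat1a, which makes S-adenosylmethionine, had 65.9, 64.6 and 54.8 CPM in Old, against 42, 49.1 and 38.7 CPM in Young. Both lay above Young without overlap, with log2 fold changes of 1.06 ± 0.36 and 0.51 ± 0.20. Of the 12 tested, these 2 lay wholly above Young, against 4.8% of all genes. Glul, in contrast, lay wholly below Young, against 4.03% of all genes, with a log2 fold change of -0.77. Gnmt, the glycine methyltransferase that uses S-adenosylmethionine, had 74.9, 47.2 and 38.9 CPM in Old, against 36.3, 40.2 and 21.3 CPM in Young, with overlap and a log2 fold change of 0.73 ± 0.28. Of 23 genes of the ATF4 and amino acid response, 19 were tested and 15 were above 0, against 50.9%, with a median of 0.10. They were higher in Old in 15 of 19 at 16 h and 13 at 20 h, and lower in 13 at 24 h, where the median difference in log2 CPM was -0.28. Of the 19 tested, 2 lay wholly above Young, against 4.8% of all genes. They were Shmt2 and Cth, enzymes of serine and cysteine metabolism (log2 fold changes 0.67 ± 0.25 and 0.64 ± 0.28).

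Cytosolic ribosomal protein genes were slightly higher in Old, mainly at 16 h. Of 49, 48 were tested; 38 had a log2 fold change above 0, against 50.9%, and the median was 0.11. Lying wholly above Young were 5 of the 48, against 4.8% of all genes. At 16 h 42 of 48 were higher in Old, at 20 h 25 and at 24 h 31. Rpl30 had 64.4, 59.1 and 42.9 CPM in Old, against 40.1, 38.4 and 38.7 CPM in Young, with a log2 fold change of 0.51 ± 0.22. Without Old 16 h the count above 0 was 31 of 48 and the median 0.03.

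Of 17 senescence and p53 target genes listed, 7 were tested, all 7 with a log2 fold change below 0, against 49.1%, and the median was -0.58. An unadjusted p under 0.05 on the lower side was reached by 2, against 1.78% of all genes, and 1 lay wholly below Young, against 4.03%. By time, 6 of 7 were lower in Old at 16 h, 4 at 20 h and 3 at 24 h. Igfbp3, a p53 target that binds insulin-like growth factors, had 3.74, 5.51 and 3.97 CPM in Old, against 9.55, 13.4 and 8.69 CPM in Young, without overlap (log2 fold change -1.24 ± 0.47). Mdm2, the ubiquitin ligase of p53, had 15.7, 8.66 and 22.2 CPM in Old, against 27.7, 27.7 and 21.3 CPM in Young, with overlap at 24 h (log2 fold change -0.71 ± 0.32). Several of these genes are also made by fibroblasts, whose markers were lowest in the same Old 16 h sample; the part of this in the senescence list was not tested. All 10 tested glucocorticoid targets and metallothioneins had a log2 fold change below 0, against 49.1% of all genes, with a median of -0.25. None of them had an unadjusted p under 0.05 in edgeR, and none lay wholly below Young. At each of 16, 20 and 24 h, 7 of the 10 were lower in Old. The metallothionein Mt1 had 19.5, 18.1 and 114 CPM in Old, against 24.8, 199 and 64.8 CPM in Young. Young 20 h stood far above the rest, and the log2 fold change of -0.93 became 0.14 without it. Without Old 24 h, on the other hand, Mt1 passed as lower in Old (-2.35, adjusted p = 0.0492), as it did without both 24 h samples (-2.58, adjusted p = 0.00119).

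Whether an age difference belonged to these hours was tested against the samples at 4, 8 and 12 h. This fit held 11 samples and 7206 genes and left out Young 4 h, so Young had 2 samples at 4 to 12 h. Young 4 h stood apart, with 8168 counts over the 12 nerve and brain genes listed, against 24 to 60 counts in each of the other 11 libraries. No gene passed (percent called 0; smallest adjusted p 1.00), and 224 had an unadjusted p under 0.05 where 360 would be expected. DESeq2 and limma-voom called 0 as well, with 83 and 216 genes at an unadjusted p under 0.05. No age difference described here was thus shown to be particular to 16 to 24 h. In that fit Reg2 had log2 fold changes of 4.63 ± 0.81 at 16 to 24 h and 4.97 ± 0.99 at 4 to 12 h, and Reg3b of 3.43 ± 0.76 at 16 to 24 h and 2.98 ± 0.85 at 4 to 12 h. Kcnma1 had 2.58 ± 0.52 at 16 to 24 h and 3.23 ± 0.68 at 4 to 12 h, and Cobl 1.21 ± 0.30 at 16 to 24 h and 1.69 ± 0.36 at 4 to 12 h. Ugt2b34 likewise had values below 0 in both, -2.68 ± 0.85 at 16 to 24 h and -2.87 ± 0.85 at 4 to 12 h. In these genes the differences between dark and light hours were smaller than their standard errors or about equal to them.

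Scara5, Cd248 and Ndfip2 were named for their p at 16 to 24 h, so values nearer to 0 at other hours follow in part from that choice and are given as a description. Scara5 had log2 fold changes of -1.84 ± 0.38 at 16 to 24 h and -0.16 ± 0.43 at 4 to 12 h, Cd248 of -1.58 ± 0.44 at 16 to 24 h and 0.30 ± 0.47 at 4 to 12 h and Ndfip2 of -1.29 ± 0.38 at 16 to 24 h and 0.38 ± 0.40 at 4 to 12 h, and the adjusted p of the difference was 1.00 for each. Over the matrix list the median log2 fold change was -0.65 at 16 to 24 h and -0.24 at 4 to 12 h. Of single genes, Sparc and the pericyte marker Rgs5 were below 0 at both sets of hours. Sparc had -1.07 ± 0.32 at 16 to 24 h and -1.24 ± 0.35 at 4 to 12 h, and Rgs5 had -0.49 ± 0.28 at 16 to 24 h and -0.81 ± 0.31 at 4 to 12 h. Their differences between these hours, 0.17 ± 0.48 and 0.32 ± 0.42 (SE), were smaller than the standard errors.

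**Figure D5:**
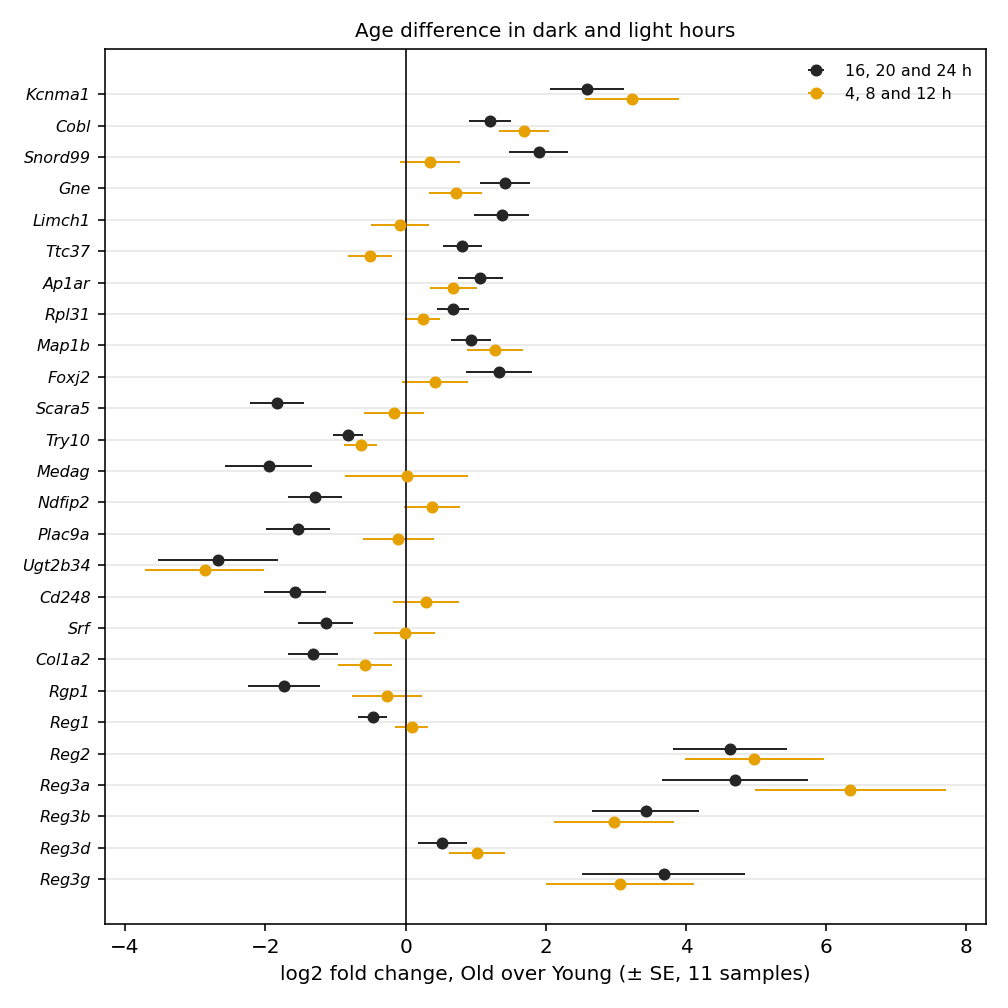
log2 fold change of Old over Young (horizontal axis, ± SE) at 16, 20 and 24 h (dark points, above) and at 4, 8 and 12 h (yellow points, below) for the named and regenerating genes, fitted to 11 samples. Reg2, Reg3b, Kcnma1 and Cobl lie right of 0 in both, and Scara5 and Cd248 lie left of 0 at 16 to 24 h and near 0 at 4 to 12 h; no difference between the 2 sets passed the adjusted test.

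The 5 genes with the smallest p for the difference between dark and light hours were Rhoq, Enah, Hsph1, Exosc10 and Casz1. Rhoq, a GTPase of insulin-stimulated glucose transport, had log2 fold changes of -0.71 ± 0.24 at 16 to 24 h and 0.66 ± 0.27 at 4 to 12 h, a difference of -1.36 ± 0.36 (SE), unadjusted p = 0.00095. Enah, a regulator of actin filaments, had 0.45 ± 0.27 at 16 to 24 h and -0.92 ± 0.28 at 4 to 12 h, a difference of 1.36 ± 0.39 (SE), unadjusted p = 0.0018. Hsph1, a heat shock protein, had 0.18 ± 0.42 at 16 to 24 h and -2.01 ± 0.49 at 4 to 12 h, a difference of 2.19 ± 0.65 (SE), unadjusted p = 0.0024. In all 5 the values were on opposite sides of 0. Exosc10, of the nuclear RNA exosome, and Casz1, a zinc finger factor, differed by 2.22 ± 0.66 and -2.35 ± 0.72. With an adjusted p of 1.00 each, they are listed as the top of the ranking and not as differences.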

How the data were processed

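The deposited table gave, for each of 12 libraries and each gene symbol, a whole-number count, and all of its sample columns were mapped through the labels. The submitters' processing notes name STAR for alignment, HTSeq for counting and the GRCm38 (mm10) build, without versions. The authors' table carries the name of another counter, featureCounts, so which tool made the counts is unsure. The sources used here do not give the annotation, the strand setting or how reads matching several genes were treated. Of 40840 symbols, 39350 (96.4%) matched RefSeq's GRCm38.p6, which gives the positions and upstream sequences.

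From the counts of the 6 samples, filterByExpr (groups by age, minimum count 10, total 15) chose the genes tested, TMM scaled them, and quasi-likelihood models of age alone were fitted in edgeR 4.0.16 (R 4.3.3). P-values were adjusted by Benjamini-Hochberg over all genes tested and called under 0.05. CPM are counts scaled to 1000000 per library after its TMM factor; they are not divided by gene length, so levels of different genes are not compared. Differences at a single time used log2 CPM with a prior count of 2. The fit of dark against light hours had 1 term for each age at 4 to 12 h and at 16 to 24 h. Floors of 3 counts cover counting error only. No library was a copy of another: even the most alike, the 20 h and 24 h samples of Young, had a chi-square of 2.49 per gene.

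The samples compared, the 48 gene lists and the naming rule were chosen with earlier results of these data known. The rule named, in each direction, genes by smallest p up to 10 where fewer passed, with a mean of at least 5 CPM in the higher group and the same side at all 3 times; every regenerating gene; up to 4 tested genes per list; and 5 genes of the fit of dark against light hours. Predicted genes were passed over. Alternatives were RLE factors, TMM factors computed without digestive enzymes, no filter, at least 10 CPM in at least 3 samples, DESeq2 1.42.0, limma-voom (limma 3.58.1), time as a block, 11 or 12 samples in the fit, and leaving out each time or sample. Counts at an unadjusted p, and list counts under each alternative, were added after seeing the data. The fits were tested on simulated data. Figures were drawn with matplotlib 3.10.9.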

Additional observations from a re-analysis of the deposited data

How the results depend on the processing

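The count of genes that passed between Old and Young was 0 under RLE scaling, scaling without digestive enzymes, the stricter filter, DESeq2, limma-voom and 12 samples. It was 24 with no filter (16 higher in Old, 8 lower), 9 without both 16 h samples (9 higher, 0 lower), 1 without both 20 h samples (Reg2, higher) and 15 without both 24 h samples (4 higher, 11 lower). With 11 samples it was 1 (Reg2, higher, adjusted p = 0.0474). Leaving out 1 sample at a time gave 0 to 14 genes, 0 to 5 higher in Old and 0 to 9 lower; the 14 came without Old 24 h. Where a time or a sample was left out, 4 or 5 samples remained. With no filter the spread is estimated over many genes of few counts. Collection time as a replicate block gave 1 gene, the uncharacterised transcript 1810007D17Rik (log2 fold change 2.00, higher in Old, adjusted p = 0.0236). The same transcript also passed with no filter, without both 16 h samples, without both 24 h samples and without Old 24 h. In the main fit its adjusted p was 0.347, and the naming rule passed it over for its type of name. Age alone was the main model because it left 4 residual degrees of freedom for the spread, against 2 with the block. Deviations of Old and Young samples of the same time correlated at 0.03, 0.02 and 0.11 over the tested genes. This does not show that single genes lack a shared course over time. For the difference between the dark and light hours, the count was 3 with no filter (1 above 0, 2 below) and 0 in each other alternative.

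Of the genes whose log2 fold change is printed, at least 6 changed sign under some alternative, and the cause was not tested. Not every printed gene was followed through the alternatives. Stat3, for example, had 22, 13 and 40 counts in Old at 16, 20 and 24 h, against 23, 14 and 24 in Young, so its direction also hung on Old 24 h. Without both 24 h samples Reg3d was -0.46, C3 -1.04, Cd74 -1.31 and Ighm -0.51, and without both 20 h samples Mt1 was 0.54. Under limma-voom C3 was -0.059 and Cd74 -0.41, and with time as a replicate block Cd74 was -0.043. Leaving out 1 sample at a time gave -0.40 to 0.90 for Reg3d, -1.0 to 1.08 for C3, -1.60 to 0.98 for Cd74, -1.0 to 1.67 for Ighm, -2.35 to 0.14 for Mt1 and -0.14 to 0.50 for Hsph1. Depth limits low genes: 3 counts are 2.25 to 2.87 CPM.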

Other observations

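Lists of housekeeping and secretory function had medians near that of all genes, 0.01 on the log2 scale, but some lay on opposite sides at different times. Unfolded protein response genes had 23 of 25 tested, 14 with a log2 fold change above 0, and a median of 0.04. They were higher in Old in 17 of 23 at 16 h and 19 at 20 h, and lower in 22 at 24 h, with a median difference of -0.41 in log2 CPM at 24 h. Secretory translocation and trafficking genes had 27 of 29 tested, 18 above 0, and a median of 0.06; 18 of 27 were higher in Old at 16 h and 19 at 20 h, and 21 were lower at 24 h, with a median difference of -0.29. Proteasome genes had 14 of 20 tested and a median of 0.09, and autophagy and lysosome genes had 16 of 20 tested and a median of 0.03. Oxidative phosphorylation genes had 29 of 32 tested, 18 below 0, and a median of -0.02, with 17 higher in Old at 16 h and 17 at 20 h and 19 lower at 24 h. Within that list Cox5a, a subunit of cytochrome c oxidase, had 16.5, 8.66 and 10.3 CPM in Old, against 27.7, 17 and 19 CPM in Young, below Young without overlap and with a log2 fold change of -0.82 ± 0.33. In the oxidative stress list, with 14 of 21 tested and a median of 0.07, Gpx1, a glutathione peroxidase, lay below Young without overlap (47.9, 46.5 and 41.3 CPM in Old, against 63, 60.8 and 56.9 CPM in Young), and Prdx1, a peroxiredoxin, had 32.2, 22 and 39.7 CPM in Old, against 21, 16.1 and 22.1 CPM in Young.

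Core clock genes had 11 of 19 tested, 5 above 0 and 6 below, with a median of -0.01. Their outputs had 7 of 12 tested, 6 below 0, with a median of -0.34. Heat shock genes had 6 of 12 tested and a median of 0.14, and immediate early genes had 5 of 18 tested, 4 below 0, and a median of -0.24. MHC class I genes were lower in Old at 16 h in 6 of 6 tested and higher at 24 h in 6 of 6. The acinar stress and pancreatitis list, other than the regenerating genes, had 13 of 25 tested, 6 above 0, and a median of -0.05.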
